A study of Sus scrofa with 5 samples.

Results

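The miR-23, miR-27 and miR-24 family is made as 2 gene clusters, an a cluster and a b cluster, and its mature miRNAs were followed here through pig embryos and cultured pig cells. Members were the reported mature miRNAs named ssc-miR-23a, 23b, 24, 24-1, 24-2, 27a or 27b, with or without an arm ending. The rule found 8 mature names in 9 rows, of 411 mature names in 493 rows, and 327 of the 411 were read at least once. All 8 members had more than 5 reads in at least 3 libraries, as had 279 miRNAs in all.

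Small RNA was sequenced from 5 samples with no genetic alteration and no drug treatment compared. BL_1 and BL_2 were pools of hatched blastocysts on day 7 after parthenogenetic activation, in which oocytes start development without sperm, here after an electric pulse and a first culture with 6-dimethylaminopurine, and were grown in PZM3 with fetal bovine serum added part of the way. ES-like cells were an embryonic stem cell-like line derived from blastocysts and kept with stem cell factor and basic fibroblast growth factor on mouse embryonic fibroblast feeders. PEBs were embryoid bodies, the aggregates that form when colonies of those ES-like cells are lifted off the feeders and grown in hanging drops without the cytokines. PFFs were fibroblasts grown from mixed-breed fetuses about a month old after removal of head, limbs and internal organs. There were 2 BL libraries and 1 library of every other cell type, so contrasts among the cultured samples had no replicate check. The labels did not say whether the BL libraries came from separate activations, and ES-like cells and PEBs shared 1 line.

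Each miRNA cluster is transcribed as 1 long primary transcript, from which the hairpins of a miR-23, a miR-27 and a miR-24 are cut and processed to mature strands. The a and b copies of a miRNA differ by very few bases outside the seed, the stretch that pairs with target mRNAs, so they are taken to share most targets. The hairpin ssc-mir-24-1 and the hairpin ssc-mir-24-2 give the same 3p strand, miR-24-3p, but different 5p strands. The family is known from vessels, muscle and fat: miR-27 restrains formation of fat cells, miR-23 limits the glutamine-using enzyme glutaminase, and miR-24 acts on regulators of the cell cycle. In the pig RefSeq annotation of Sscrofa11.1, used here for gene order alone, MIR23A, MIR27A and MIR24-1 were direct neighbours between MIR181C and ZSWIM4. MIR24-2, MIR27B and MIR23B were direct neighbours inside the span of the protein-coding gene C10H9orf3. All 6 precursors named in the table were matched through the synonyms listed in the annotation.

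Library depth in mature miRNA reads was 27071931 in PFFs, 15849954 in PEBs, 6372500 in ES-like cells, 2782150 in BL_2 and 113743 in BL_1. Levels are given as reads per 1000000 mature miRNA reads (RPM), so that with 0 reads a level of up to 26.4 RPM (3 counts) was allowed in BL_1 and 0.111 RPM in PFFs. BL_1 was far shallower than the other libraries, and its low values are loose. The read summary supplied with the study listed the totals of ES-like cells and PFFs the other way round, and the columns were assigned here by the library names in the sample titles. In the column assigned to PFFs, ssc-miR-21 took 52.3% of the reads, and the epithelial miRNAs measured, 2 of 7 listed, summed to 0.776 RPM against 1219.6 in the column of ES-like cells.

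The members together took 2.95% of mature reads in PFFs, 2.66% in PEBs, 1.38% in ES-like cells, 0.932% in BL_2 and 0.536% in BL_1. They were thus a larger part of the miRNA pool in each cultured sample than in either BL library, and largest in PFFs. With only the larger precursor row of each miRNA counted, the share was 2.93% in PEBs and 2.74% in PFFs, so the order of these 2 samples depended on that choice. In bulk RNA, fewer cells with a miRNA and less of it per cell cannot be told apart.

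In the a cluster, miR-27a was higher in every cultured sample than in embryos. Its level was 2044 RPM in PFFs, 1219 in PEBs, 613 in ES-like cells, 91.7 in BL_2 and 52.8 in BL_1 (6 reads). The BL and cultured samples did not overlap. The BL mean was 72.2 ± 27.5 RPM (SD, n = 2), and the level was 8.48-fold higher in ES-like cells, 16.9-fold higher in PEBs and 28.3-fold higher in PFFs by RPM. With TMM scaling it was 4.97-fold in ES-like cells and 43.7-fold in PFFs, and with DESeq2 size factors 11.0-fold in PEBs. Against BL_1 and BL_2 taken singly, the PFF level was 38.7-fold and 22.3-fold higher. The rank of miR-27a among all miRNAs went from 138 in BL_1 and 120 in BL_2 to 85, 63 and 31 in ES-like cells, PEBs and PFFs.

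The level of miR-23a was 1679 RPM in PFFs, 705 in PEBs, 335 in ES-like cells, 324 in BL_2 and 176 in BL_1 (20 reads). ES-like cells thus lay next to BL_2, while PEBs and PFFs lay above every other sample. The BL mean was 249.8 ± 105 RPM, and miR-23a was 1.34-fold higher in ES-like cells on the RPM scale but 0.785-fold with TMM scaling, which sets most miRNAs level between libraries. By RPM it was 2.82-fold higher in PEBs and 6.72-fold higher in PFFs. The PEB value was 1.85-fold with DESeq2 size factors, no longer past 2-fold, and the PFF value was 10.3-fold with TMM scaling.

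The third a-cluster product, miR-24-1-5p, is the strand of the ssc-mir-24-1 hairpin that is usually discarded. It stood at 251 RPM in PFFs, 264 in PEBs, 131 in ES-like cells, 44.6 in BL_2 and 8.79 in BL_1 from a single read. Every cultured sample was above BL_2, and PEBs and PFFs were close to each other on the RPM scale. Within the a cluster, the ratio of miR-27a to miR-23a reads was 1.22 in PFFs, 1.73 in PEBs and 1.83 in ES-like cells, against 0.283 in BL_2 and 0.3 in BL_1. Neighbouring hairpins of the a cluster therefore did not keep 1 ratio of mature reads between embryos and cultured cells. In the b cluster, the ratio of miR-27b-3p to miR-23b reads was 38.0 in PFFs, 29.4 in PEBs and 34.5 in ES-like cells. It was 17.9 in BL_2 and 37.7 in BL_1, where miR-23b had 10 reads. In this ratio BL_1 thus lay among the cultured samples and BL_2 below them.

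In the b cluster, miR-27b-3p was the most abundant member in every library. It reached 13395 RPM in PFFs, 13583 in PEBs, 7988 in ES-like cells, 6584 in BL_2 and 3314 in BL_1. The level differed 1.99-fold between the BL libraries, more than between BL_2 and ES-like cells, and was nearly the same in PEBs and PFFs on the RPM scale. The BL mean was 4949 ± 2312 RPM, and PEBs stood at 2.74-fold and PFFs at 2.71-fold of it by RPM. With TMM scaling they stood at 2.25-fold and 4.15-fold, and with DESeq2 size factors PEBs were at 1.80-fold, no longer past 2-fold. Its rank among all miRNAs was 9 in PFFs, 16 in PEBs, 25 in ES-like cells, 18 in BL_2 and 26 in BL_1.

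The level of miR-23b was 352 RPM in PFFs, 463 in PEBs, 232 in ES-like cells, 369 in BL_2 and 87.9 in BL_1 (10 reads). The groups overlapped, since BL_2 lay above ES-like cells and PFFs. The BL libraries differed 4.19-fold (95% counting interval 2.27 to 8.77), and ES-like cells were 2.64-fold above BL_1 and 0.628-fold of BL_2. No direction between embryos and cultured cells can be read for miR-23b.

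The minor 5p strands of the b cluster were rare. The level of miR-27b-5p was 38.5 RPM in PFFs, 67.9 in PEBs, 23.1 in ES-like cells, 60.0 in BL_2 and 26.4 in BL_1 (3 reads). The level of miR-24-2-5p was 6.24 in PFFs, 14.0 in PEBs, 7.38 in ES-like cells, 1.80 in BL_2 (5 reads) and 0 in BL_1 (0 reads, which allows up to 26.4 RPM). On the RPM scale PEBs had the most of each among libraries with a read, while with TMM scaling miR-27b-5p was highest in BL_2, at 69.2 against 63.8 in PFFs and 60.2 in PEBs.

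The strand shared by both clusters, miR-24-3p, gave 11769.5 RPM in PFFs, 10332 in PEBs, 4448 in ES-like cells, 1847 in BL_2 and 1697 in BL_1. The BL libraries were close, at 1.09-fold (0.943 to 1.26), and every cultured sample lay above both. The BL mean was 1772 ± 106 RPM, and the level was 2.51-fold higher in ES-like cells, 5.83-fold in PEBs and 6.64-fold in PFFs by RPM. With TMM scaling it was 1.51-fold in ES-like cells, no longer past 2-fold, and 10.5-fold in PFFs, and with DESeq2 size factors 3.77-fold in PEBs. The table gives miR-24-3p 2 rows, 1 for each precursor, and leaves unclear if reads were counted for both. The ssc-mir-24-1 row held 47.5% of the sum in PFFs, 43.4% in PEBs, 42.6% in ES-like cells and 45.4% and 46.1% in BL_2 and BL_1, so the rows cannot be used to split the strand between the clusters. With the larger row alone the level was 7736 RPM in PEBs and 7069 in PFFs, in the reverse order.

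**Figure D1:**
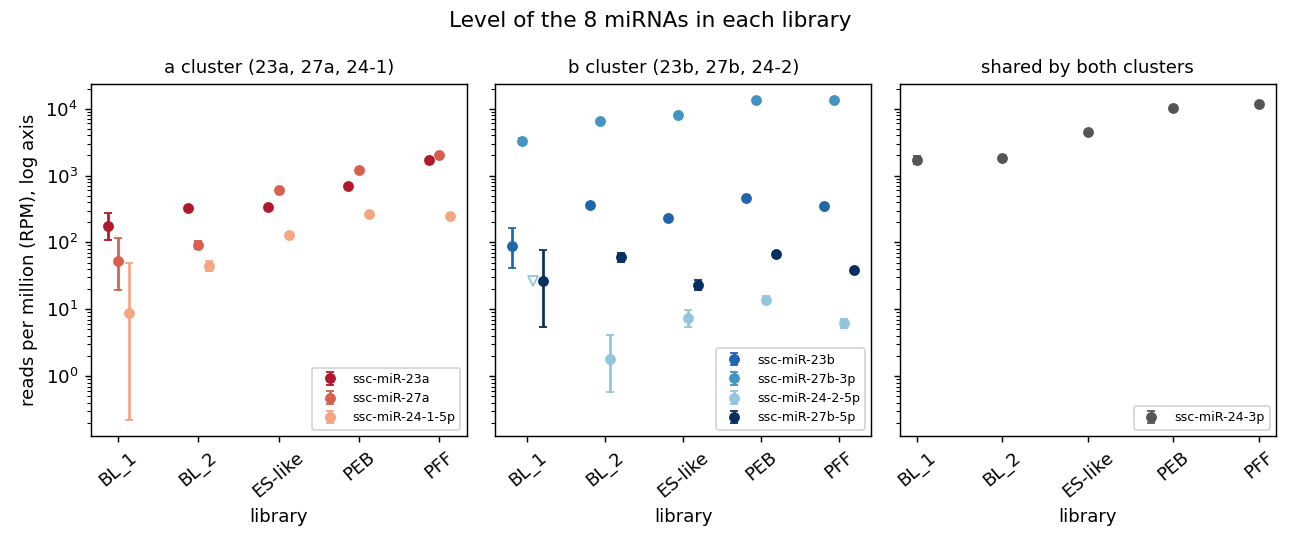
Level of each member in RPM on a log axis, by library. Points are single libraries, bars are exact 95% Poisson intervals for counting error, and the open triangle is the 3-count limit of miR-24-2-5p in BL_1. miR-27a, miR-24-1-5p and miR-24-3p lie higher in every cultured sample than in BL_1 and BL_2. By RPM so do miR-27b-3p, at 7988 in ES-like cells against 6584 in BL_2, and narrowly miR-23a, at 335 against 324. With TMM scaling miR-27b-3p and miR-23a lie lower in ES-like cells than in BL_2. miR-23b and miR-27b-5p overlap between embryos and cultured cells. How many of all miRNAs lie higher in every cultured sample was not counted.

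The spread between BL libraries sets what can be read from these levels. Over 120 miRNAs with at least 10 reads in both, the median fold between BL_1 and BL_2 was 1.37, in whichever direction, and 22 of them (18.3%) differed more than 2-fold. Of the members, miR-23b was beyond 2-fold with an interval that stayed above it. The interval of miR-24-1-5p, from 0.893 to 202, held nearly any value.

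The share of the a copy in a pair does not depend on scaling between libraries. Reads of miR-23a made up 82.7% of miR-23a and miR-23b in PFFs (95% Wilson interval 82.3 to 83.0, counting error alone), 60.4% (59.7 to 61.1) in PEBs, 59.1% (57.5 to 60.7) in ES-like cells, 46.8% (44.5 to 49.0) in BL_2 and 66.7% (48.8 to 80.8) in BL_1. The PFF library was the one with the highest share, and ES-like cells and PEBs lay between the BL libraries.

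In the miR-27 pair the b copy held most of the reads in every sample. Reads of miR-27a made up 13.2% (13.1 to 13.3) of miR-27a and miR-27b-3p in PFFs, 8.23% (8.12 to 8.35) in PEBs, 7.12% (6.91 to 7.34) in ES-like cells, 1.37% (1.22 to 1.55) in BL_2 and 1.57% (0.720 to 3.38) in BL_1. The BL libraries overlapped each other in their intervals and neither overlapped a cultured sample. Among the 5p strands of miR-24 the a-cluster strand was the main one, with 97.6% (97.2 to 97.9) in PFFs, 94.97% (94.3 to 95.6) in PEBs, 94.7% (93.0 to 96.0) in ES-like cells and 96.1% (91.2 to 98.3) in BL_2, and a single read in BL_1.

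**Figure D2:**
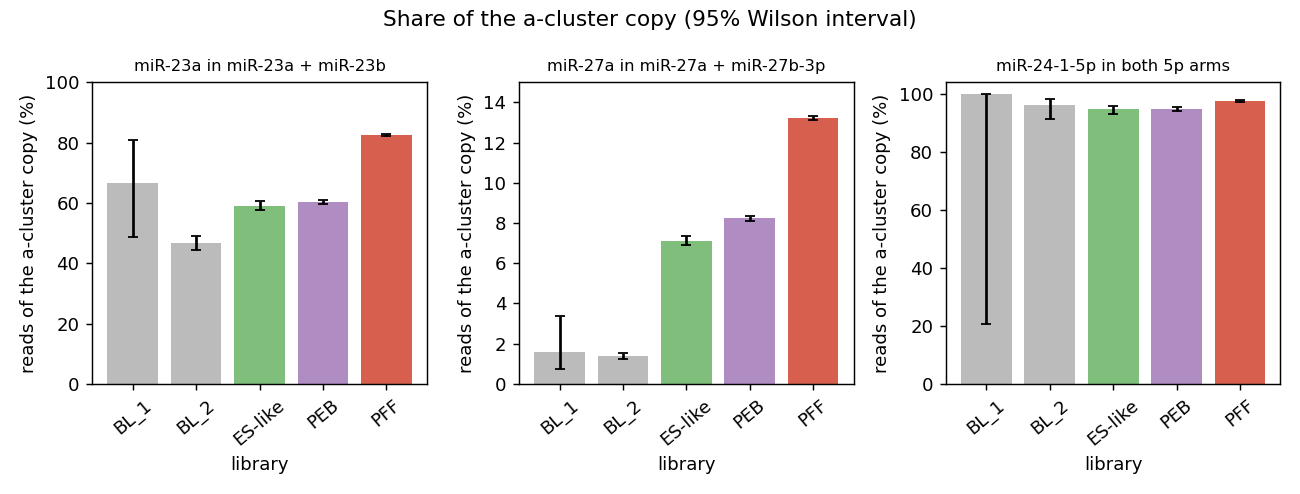
Percent of reads from the a-cluster copy in each pair, by library, with 95% Wilson intervals for counting error. The axis of the miR-27 panel ends at a lower value than the others. PFFs have the highest share in the miR-23 and miR-27 pairs, and the miR-27a share is 1.57% and 1.37% in the BL libraries against 13.2% in PFFs.

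As ratios, the step from ES-like cells to PEBs was small in each pair. The a to b ratio was 1.05-fold (0.980 to 1.13) for miR-23, 1.17-fold (1.13 to 1.21) for miR-27 and 1.07-fold (0.772 to 1.47) for the miR-24 5p strands. From ES-like cells to PFFs the ratio was 3.29-fold higher (3.07 to 3.53) for miR-23, 1.99-fold (1.92 to 2.06) for miR-27 and 2.27-fold (1.63 to 3.16) for the miR-24 5p strands. All 3 pairs thus had more of the a copy in PFFs than in ES-like cells, beyond counting error. The single libraries give no measure of the spread between cultures.

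Between embryos and ES-like cells the pairs did not move alike. The ratio of miR-27a to miR-27b-3p was 5.51-fold (4.85 to 6.26) higher in ES-like cells than in BL_2 and 4.82-fold (2.15 to 10.8) higher than in BL_1. The ratio of miR-23a to miR-23b was 1.65-fold (1.47 to 1.84) that of BL_2 but 0.723-fold (0.338 to 1.55) that of BL_1. The BL libraries themselves differed 2.28-fold (1.06 to 4.89) in the miR-23 ratio and 1.14-fold (0.506 to 2.59) in the miR-27 ratio.

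Shifts of this size were common among miRNAs with an a and a b copy. In 14 other pairs with the same number and arm and at least 100 reads of each copy in ES-like cells, PEBs and PFFs (miR-24-2-5p, with 47 reads in ES-like cells, would not meet this), the log2 ratio in PFFs differed from that in ES-like cells by -2.77 to 4.62, with a median size of 1.55. The shift was 1.72 for miR-23, 0.99 for miR-27 and 1.18 for the miR-24 5p strands, and 7, 8 and 8 of the 14 pairs had a shift at least as large. In PEBs against ES-like cells the 14 pairs ranged from -1.06 to 1.92, with a median size of 0.48, and 0, 4 and 2 of them had a shift as small as those of miR-23, miR-27 and the miR-24 5p strands. The pair miR-199a-3p and miR-199b-3p was left out because its counts differed by fewer than 50 reads.

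**Figure D3:**
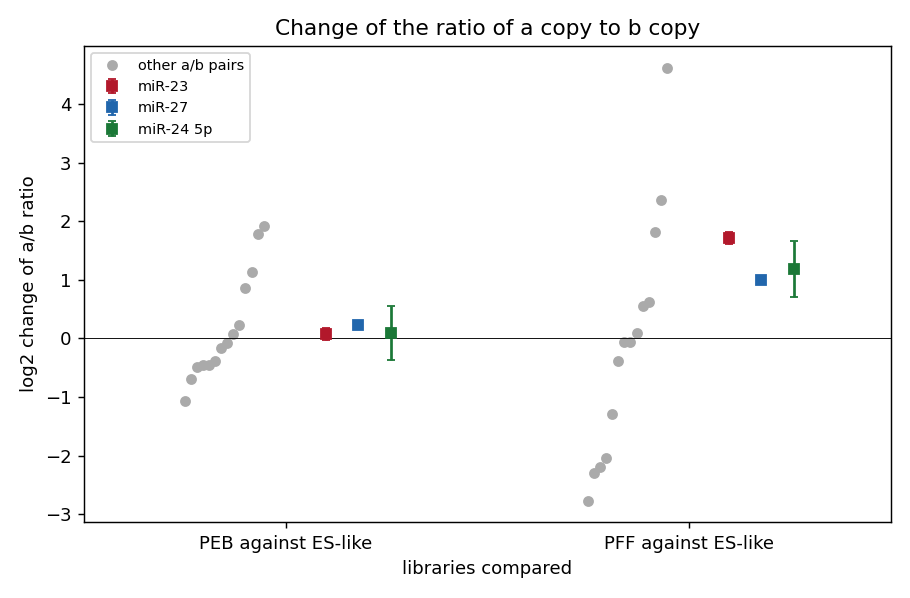
Log2 change of the a to b ratio from ES-like cells to PEBs and from ES-like cells to PFFs. Squares are the pairs of this family with 95% counting intervals, and grey points are 14 other a and b pairs in order of their change. The family's pairs lie near 0 in PEBs and between 0.99 and 1.72 in PFFs, inside the range of the other pairs in both.

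Summed without miR-24-3p, the a cluster gave 3973 RPM in PFFs, 2189 in PEBs, 1079 in ES-like cells, 460.1 in BL_2 and 237 in BL_1. The b cluster gave 13792 RPM in PFFs, 14127.5 in PEBs, 8249.8 in ES-like cells, 7014 in BL_2 and 3429 in BL_1. The a cluster thus supplied 22.4% of these reads in PFFs, 13.4% in PEBs, 11.6% in ES-like cells, 6.16% in BL_2 and 6.47% in BL_1.

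Strand use was followed in the hairpins with both arms in the table. The 5p strand made up 0.286% (0.269 to 0.304) of miR-27b reads in PFFs, 0.497% (0.469 to 0.528) in PEBs, 0.288% (0.245 to 0.338) in ES-like cells, 0.903% (0.777 to 1.05) in BL_2 and 0.789% (0.269 to 2.30) in BL_1. For miR-24, both 5p strands together made up 2.14% of reads in PFFs, 2.62% in PEBs, 3.01% in ES-like cells, 2.45% in BL_2 and 0.515% (0.0911 to 2.86) in BL_1. With the larger 3p row in place of the sum, a setting chosen after seeing the data, these shares were 4.00%, 4.54%, 5.13%, 4.40% and 0.952%. The 3p strand was therefore the main product of both hairpin families in every sample.

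Of the 6 comparisons of cell types, that of PEBs with ES-like cells had the narrowest range of member folds. From ES-like cells to PEBs every member was higher, from 1.70-fold (1.68 to 1.72) for miR-27b-3p to 2.94-fold (2.47 to 3.52) for miR-27b-5p. The other members lay between 1.90-fold and 2.32-fold, with miR-23a at 2.10-fold, miR-23b at 2.00-fold and miR-27a at 1.99-fold. Counted past 2-fold, 4 of 8 members were higher, beside 20.5% of the 278 miRNAs tested. The median log2 fold was 1.01 over the members and -0.23 over all miRNAs. With TMM scaling, 8 of 8 members were past 2-fold, beside 30.6% of all.

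PFFs differed from ES-like cells most in miR-23a and miR-27a. The fold was 5.01 (4.79 to 5.23) for miR-23a, 3.34 (3.23 to 3.45) for miR-27a, 2.65 (2.61 to 2.68) for miR-24-3p and 1.92 (1.79 to 2.07) for miR-24-1-5p. The b copies were at 1.68-fold for miR-27b-3p, 1.67-fold for miR-27b-5p and 1.52-fold for miR-23b, and miR-24-2-5p was at 0.846-fold on the RPM scale but 2.23-fold with TMM scaling. Past 2-fold were 3 of 8 members, beside 16.0% of 275 miRNAs tested. In PFFs ssc-miR-21 took 52.3% of the reads, and the median log2 fold of all miRNAs was -1.1 by RPM and 0.29 with TMM scaling. On the TMM scale 8 of 8 members were past 2-fold, beside 37.5% of all, with 13.2-fold for miR-23a and 8.79-fold for miR-27a.

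**Figure D4:**
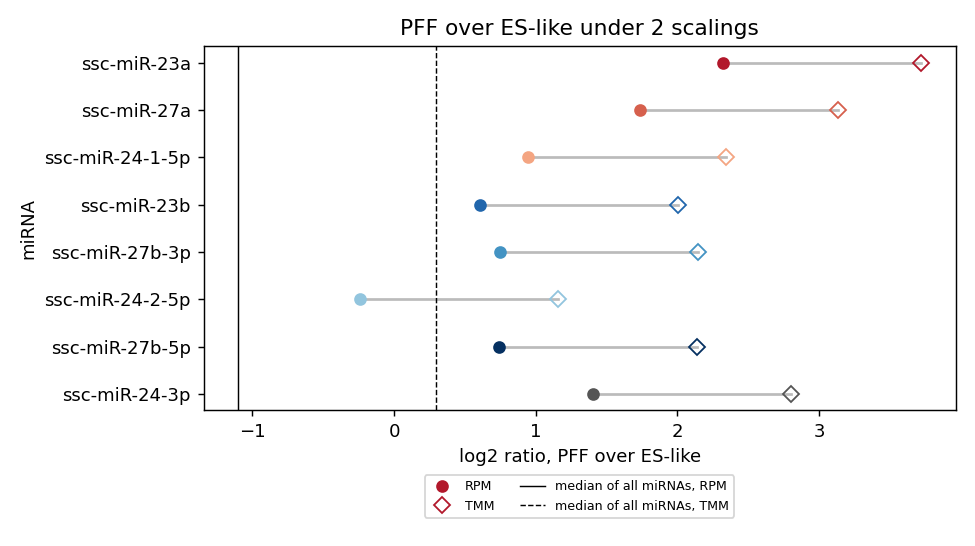
Log2 ratio of PFFs over ES-like cells for each member by RPM (filled) and with TMM scaling (open), with the medians of all miRNAs tested as vertical lines. TMM scaling moves every member and the median by the same step, from -1.1 to 0.29 for the median, and miR-23a has the highest ratio of the members under both.

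Between the differentiated samples, miR-23a and miR-27a were higher in PFFs than in PEBs, at 2.38-fold (2.33 to 2.43) and 1.68-fold (1.65 to 1.70) by RPM. With TMM scaling they stood at 4.45-fold and 3.13-fold, so that miR-27a was then past 2-fold as well. The shared strand miR-24-3p was at 1.14-fold by RPM and 2.13-fold with TMM scaling, but with the largest precursor row its log2 fold was -0.13. On the RPM scale miR-23b was at 0.762-fold, miR-27b-3p at 0.986-fold, miR-27b-5p at 0.566-fold and miR-24-1-5p at 0.949-fold, while TMM scaling put these 4 at 1.42-fold, 1.84-fold, 1.06-fold and 1.77-fold. The lowest was miR-24-2-5p, at 0.446-fold by RPM and 0.833-fold with TMM scaling. Higher past 2-fold was 1 of 8 members, beside 14.1% of 276 miRNAs, and lower was 1, beside 44.9%. With TMM scaling 3 of 8 were higher, beside 29.3%.

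Against the BL mean, 4 of 8 members were past 2-fold higher in ES-like cells, beside 51.6% of 254 miRNAs tested. In PEBs 7 of 8 were higher, beside 50.6% of 255, and in PFFs 6 of 8, beside 34.9% of 252. The share in ES-like cells was near that of all miRNAs. The members' median log2 fold was 2.74 in PFFs, 2.02 in PEBs and 1.01 in ES-like cells, where the medians of all miRNAs were -0.24, 1.02 and 1.14. With TMM scaling the members' medians were 3.35, 1.76 and 0.25 in the same order, and those of all miRNAs 0.41, 0.77 and 0.36. By RPM without BL_1, the members' median in PFFs was 2.09. These counts and medians hold miR-24-2-5p, whose fold over BLs rests on 5 reads in BL_2 and 0 in BL_1. With BL_1 at its limit its BL mean would be 14.1 RPM, above each cultured sample, so no direction can be read for it. Without it, 5 of 7 members were past 2-fold in PFFs, 6 in PEBs and 3 in ES-like cells, with medians of 2.73, 1.5 and 0.69. On the RPM scale miR-27b-5p lay below the BL mean in ES-like cells and PFFs, at 0.534-fold and 0.890-fold, and with TMM scaling the PFF value was 1.36-fold. By RPM these 2 values were 0.875-fold and 1.46-fold over BL_1 alone, and 0.384-fold and 0.641-fold over BL_2 alone. With TMM scaling miR-23a, miR-23b and miR-27b-3p were also below the BL mean in ES-like cells, at 0.785-fold, 0.575-fold and 0.941-fold, against 1.34-fold, 1.02-fold and 1.61-fold by RPM.

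**Figure D5:**
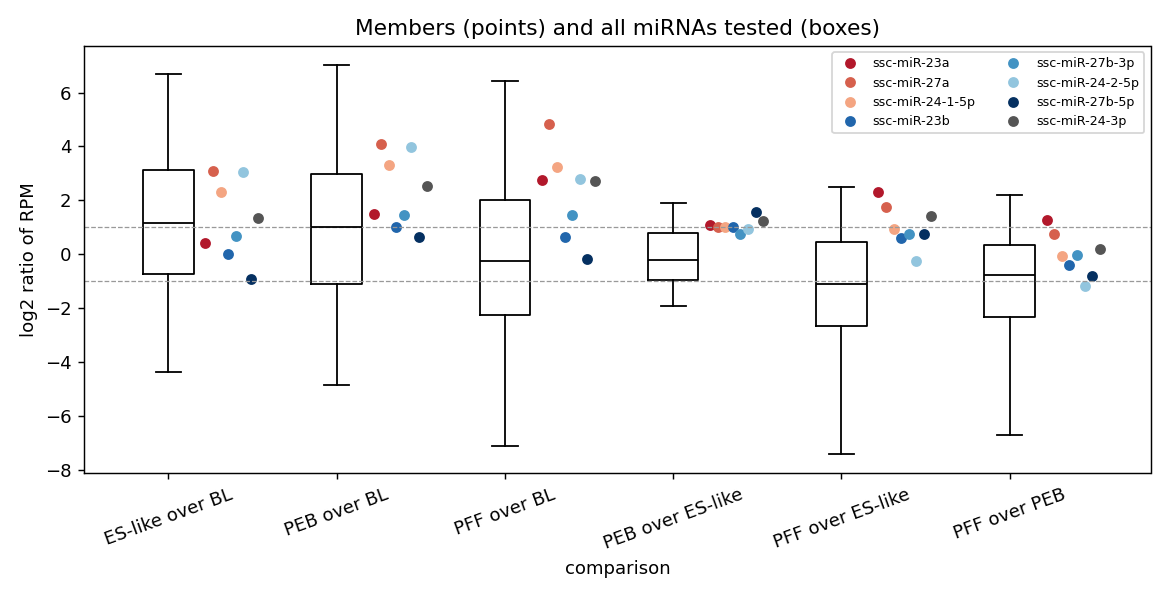
Log2 ratio of RPM in 6 comparisons of cell types. Boxes show the quartiles of all miRNAs tested with whiskers from the 5th to the 95th percentile, coloured points are the 8 members, and dashed lines mark 2-fold. The members lie above the median of all miRNAs most clearly in PFFs over BL, where the medians are 2.74 and -0.24.

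Both tests across libraries joined cell types into groups. In edgeR, PEBs and PFFs were compared with the BLs and ES-like cells, that is 2 differentiated with 3 pluripotent libraries. No miRNA of 279 passed an adjusted p of 0.05 (0.0%; 29 had an unadjusted p below 0.05, and DESeq2 called 14), and 0 of 8 members did. All 8 members had a fitted log2 fold above 0, and 3 had an unadjusted p below 0.05. The highest was miR-27a, with a log2 fold of 3.62 (SE 1.24, edgeR adjusted p = 0.381, 0.050 to 0.927 over the alternatives), and the lowest miR-27b-5p, with 0.76 (SE 1.1, edgeR adjusted p = 0.840). The members' median log2 fold was 2.34, against 0.48 over all miRNAs. Without PFFs, where the PEB library stood alone and its spread was assumed to be that of the other group, the median was 0.85 over the 7 members still tested and -0.17 over all miRNAs. The log2 fold of miR-27a was then 2.15, that of miR-24-3p 1.65 (from 2.72), that of miR-24-1-5p 1.79 (from 2.74), that of miR-23a 0.85 (from 2.77) and that of miR-27b-3p 0.73 (from 1.71). Without ES-like cells miR-27a was at 4.86. Without BL_1 the members' median was 1.55, with miR-27b-3p at 0.88 and miR-23b at 0.18 (from 1.18).

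Compared as cultured samples with BLs, the 3 libraries of ES-like cells, PEBs and PFFs gave 33 called miRNAs of 279 in edgeR (11.8%), and again 0 of 8 members. Here miR-27a came nearest, with a log2 fold of 4.35 (SE 1.25, edgeR adjusted p = 0.0614), and was higher in 3 of 3 cultured samples than in both BL libraries. It was called in 3 of 9 alternatives, which were DESeq2 (adjusted p = 0.000721), edgeR with RLE size factors (0.0464) and edgeR without PFFs (0.0186). In edgeR without PEBs its adjusted p was 0.113. The 3 alternatives also called more of all miRNAs, at 100 of 279, 55 of 279 and 89 of 229. Next were miR-24-1-5p, with a log2 fold of 2.90 (SE 1.15, edgeR adjusted p = 0.120, 0.0358 with DESeq2 and up to 0.460 over the alternatives), and miR-24-3p, with 2.50 (SE 1.01, edgeR adjusted p = 0.124). For the copies of miR-23 the fitted log2 fold was 2.15 (SE 1.25) for miR-23a and 0.56 (SE 0.99) for miR-23b. The b copy miR-27b-3p had 1.29 (SE 0.91), and none of these passed the test. The b copy miR-24-2-5p had 2.37 (SE 1.14) and did not pass either, but it met the filter on low counts only through the 3 cultured libraries, where it was high, so its value is no support for a difference. The difference between a and b copies was not tested in these fits. Leaving out 1 library moved the fitted log2 folds, to 2.79 without PFFs and 3.25 without BL_1 for miR-27a, and to 1.34 without PFFs and 1.61 without BL_1 for miR-24-3p. For miR-24-1-5p they were 1.73 without PFFs, 1.57 without BL_1 and 4.71 without BL_2, and for miR-23a 0.22 without PFFs and 0.99 without BL_1. For miR-27b-3p they were 0.29 without PFFs, 0.11 without BL_1 and 1.90 without BL_2. For miR-24-2-5p the value was 1.48 without BL_1, and 9.66 (SE 5.96) without BL_2, where no embryo read was left and the value is no measure of size. The 33 calls fell to 0 without either BL library, to 16 without ES-like cells and to 3 without PEBs, and numbered 89 without PFFs. Without ES-like cells this test and the previous one are the same fit.

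Likeness of pattern was measured as the root mean square difference of log2 RPM, centred over the libraries, among 115 miRNAs with at least 10 reads in all 5. Nearest to miR-24-3p were let-7g (0.16), miR-99a (0.20) and miR-181b (0.29). Nearest to miR-23a were miR-21 (0.40), miR-24-3p (0.52) and miR-221-3p (0.55). The b copies miR-27b-3p and miR-23b, neighbours in 1 cluster, were nearest to each other (0.41). They were followed by let-7g (0.54) and miR-374b-5p (0.55) for miR-27b-3p, and by miR-374b-5p (0.55) and miR-185 (0.63) for miR-23b. The other 4 members had too few reads in BL_1 to be placed. Over the 4 libraries without BL_1, where 210 miRNAs had enough reads, miR-27a was nearest to miR-450a (0.42), miR-125b (0.45) and miR-450c-5p (0.50), and miR-24-1-5p to miR-99a (0.09), let-7g (0.16) and miR-24-3p (0.17). There miR-23b and miR-27b-5p were nearest to each other (0.29), miR-27b-3p was nearest to miR-345-3p (0.11), miR-23a to miR-221-3p (0.16) and miR-24-3p to let-7e (0.16), so each of the 4 members placed over all libraries had another nearest miRNA here, with more candidates and no BL_1. No other member of its cluster was thus among the 3 nearest to miR-27a.

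Markers of other cell types differed between the same samples. The 16 fibroblast or mesenchymal miRNAs listed, with miR-21, miR-199b-3p and miR-199a-3p the highest in mean RPM over the libraries, summed to 52205 RPM in BL_1 and 79916 in BL_2, with 5 and 2 of them at 0. The sum was 805763 RPM in PFFs, 434360 in PEBs and 263257 in ES-like cells, with none at 0. Single strands did not all follow these sums. Of 15 tested in ES-like cells over BLs, 11 were past 2-fold higher and 1 lower. The lower strand was miR-222, at 164 RPM in ES-like cells against 2057 in BL_1 and 1132 in BL_2. In PFFs over ES-like cells 9 of 16 were past 2-fold higher and 1 lower. This was miR-31, at 23.1 RPM in PFFs against 349 in ES-like cells. Within 2-fold, miR-22-3p was lower in PFFs as well. A large part of each sum was miR-21, and without it the sums were 282955 RPM in PFFs, 245617 in PEBs, 108409 in ES-like cells, 9935 in BL_2 and 13627 in BL_1, so that the BL libraries changed order. Counts of miR-199a-3p and miR-199b-3p were nearly equal, so the same reads may be counted for both. With miR-199b-3p left out as well, the sums were 230437 RPM in PFFs, 165196 in PEBs, 81893 in ES-like cells, 9813 in BL_2 and 13434 in BL_1. The members' summed share had the order of the whole sums over the 5 libraries, but not that of the sums without miR-21, and with the largest precursor row PEBs were above PFFs in it. In BL_1 miR-145-5p, miR-143-5p, miR-199b-5p, miR-214 and miR-31 were at 0, and in BL_2 miR-145-3p and miR-143-5p. In the edgeR test of cultured samples against BLs, 6 of the 16 were called higher, beside 15 of all 279 miRNAs (5.38%). Of the 16, 4 had more than 5 reads in neither BL library and so met the filter only through the cultured samples, and 2 of the 6 called, miR-145-5p and miR-214, were among them. The called miR-199a-3p and miR-199b-3p had nearly the same counts, and no call of that test was left without either BL library. In the test of PEBs and PFFs against BLs and ES-like cells 0 of the 16 were called. The endothelial strands miR-126-3p and miR-126-5p summed to 166 RPM in PFFs, 299.9 in PEBs, 1342 in ES-like cells, 44.6 in BL_2 and 106 in BL_1, an order unlike that of any member. The epithelial strands miR-429 and miR-205 summed to 0.776 RPM in PFFs, 789 in PEBs, 1219.6 in ES-like cells, 5777 in BL_2 and 4748 in BL_1. In the BL libraries miR-205 carried the sum. The other strand, miR-429, stood at 1199 RPM in ES-like cells and 718 in PEBs against 23.4 in BL_2 and 0 in BL_1. The pluripotency-associated strands measured, 6 of 10 listed, summed to 9265 RPM in PFFs, 63660 in PEBs, 96386 in ES-like cells, 346936 in BL_2 and 380560 in BL_1. Their leading strand miR-371-5p stood at 296148 and 324635 RPM in BL_2 and BL_1 but at 30.9 in ES-like cells. It carried the BL sums, and 4 of the 6, miR-17-5p, miR-18a, miR-19a and miR-20a, were past 2-fold higher in ES-like cells than in BLs, beside 51.6% of all miRNAs, with a median log2 fold of 3.16 over the 6. The 4 muscle strands summed to between 191 RPM in ES-like cells and 2445 in BL_2, and the 4 blood strands measured of 5 listed to between 0 in BL_1 and 84.5 in PEBs. Reads of the mouse feeders of the ES-like cells cannot be told apart here from those of the pig cells. What fibroblast-like or feeder cells contribute to the members' levels was not tested.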

How the data were processed

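The small RNA libraries were grouped by cell type, as given by the submitters' labels. The authors trimmed reads with Cutadapt 1.10, aligned them with Bowtie 1.1.1 to Sscrofa10.2, used SAMtools 1.2 and HTSeq 0.6.1p1 (versions per the submitters' processing notes) and sorted the reads into miRBase miRNAs and predicted ones with miRDeep2. What the authors deposited for reported miRNAs are raw counts, 1 row for each pair of mature miRNA and precursor. The table of predicted miRNAs was not used here.

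Counts were summed over the precursor rows of a mature miRNA and given as RPM of all reported mature miRNA reads. Levels have exact Poisson, folds binomial (Clopper-Pearson), shares Wilson and ratio shifts log-odds intervals, at 95%. These cover counting error only, and reads without molecular identifiers are not independent molecules. Folds between cell types, with BLs as the mean of both libraries, were called past 2-fold where both cell types had a read. A miRNA was kept if at least 3 libraries had over 5 reads of it. edgeR 4.0.16 (TMM, quasi-likelihood F test, p-values adjusted by Benjamini-Hochberg over all miRNAs tested) was run in R 4.3.3 after being tested on simulated data, and standard errors were derived from its F statistic. The simulated data had less spread than these fits, whose common dispersion was 1.25 in the first test and 0.728 in the second. They thus give no error rate at that spread. P-values measure the spread between these libraries, which are of different cell types.

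Alternatives were DESeq2 1.42.0, RLE or DESeq2 size factors, TMM-scaled RPM, no filter, a 4-fold threshold, the largest precursor row and the omission of single libraries. Every member was named and, where no library had under 10 reads, the 3 nearest miRNAs in pattern. The members, the marker lists and the other a and b pairs were chosen with earlier results of these data known. The design had paired the miR-24 5p strands by human numbering. The pig annotation places 24-1 in the a cluster, so 24-1-5p was taken as the a copy, and patterns without BL_1 and the miR-24 5p share with the larger 3p row were added, all after seeing the data. Mature sequences were not used here.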

Additional observations from a re-analysis of the deposited data

How the results depend on the processing

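Counts of members past 2-fold depended on the scaling. In PEBs over ES-like cells the 4 members became 8 with TMM scaling, 7 with the largest precursor row and 0 at 4-fold. The 57 miRNAs of all became 85, 66 and 11. In PFFs over ES-like cells the 3 members became 8 with TMM scaling, 7 with DESeq2 size factors and 1 at 4-fold, and the 44 miRNAs became 103, 86 and 22. In PFFs over PEBs the 1 member higher became 3 with TMM scaling, 3 with size factors and 0 at 4-fold, and the 39 miRNAs became 81, 85 and 17. In PEBs over BLs the 7 members became 4 with size factors and 4 at 4-fold, and the 129 miRNAs of 255 became 109 and 94. In PFFs over BLs the 88 miRNAs became 58 to 81 when 1 BL library was left out, with 58 without BL_2.

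In the edgeR test of PEBs and PFFs against BLs and ES-like cells, the 0 calls became 14 with DESeq2 and ranged from 0 to 16 when 1 library was left out, with 16 without ES-like cells. In that of cultured samples against BLs, the 33 calls became 100 with DESeq2, 55 with RLE size factors and 51 with no filter, and ranged from 0 to 89 when 1 library was left out. The 0 members called there became 2 with DESeq2 and 1 with RLE size factors, and ranged from 0 to 1 when 1 library was left out. Where 1 library was left in a group (1 BL library, or PEBs or PFFs alone in the first test), its spread was assumed to be that of the other group.

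In the edgeR fits the sign of 2 weak members changed. In the first test the fitted log2 fold of miR-27b-5p was 0.76, and -0.083 to 1.47 when 1 library was left out, with -0.083 without BL_1. In the second it was -0.09, but 0.16 with no filter and 0.093 with the largest precursor row, and -1.27 to 0.72 when 1 library was left out, with 0.72 without BL_2 and 0.41 without ES-like cells. In the second test miR-23b was at 0.56, and at -0.84 to 2.03 when 1 library was left out, with -0.84 without BL_1 and -0.35 without PFFs. Between cell types, the RPM folds of further members changed side of 1 with the scaling, the precursor row or the BL library used. The causes were not tested. No paired analysis was possible because only BLs had replicates. The depth of BL_1 limited miR-27a, both miR-24 5p strands, miR-23b and miR-27b-5p, none of which had more than 10 reads there.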
